A study of Mus musculus with 4 samples.

Results

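Genes that drive cell division were measured in 4 RNA-seq libraries of mouse macrophages. The list holds 48 genes of known function: 23 act in mitosis, 18 in DNA replication or nucleotide supply, and 7 regulate the G1 phase that precedes DNA synthesis. The symbols were matched to NCBI gene IDs, and all 48 were found among the 16403 genes listed in at least 1 library. Each of the 48 had reads in all 4 libraries.

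The cells were peritoneal macrophages of C57BL/6 mice, drawn 4 days after injection of 4% thioglycolate, which recruits monocyte-derived cells into the abdominal cavity. They were left to adhere for 4 h and then held in medium with 0.5% FBS, a starvation that all 4 groups shared. The groups were wild-type (WT) or TIF1a knockout (KO), each either untreated or given mouse IL-4 at 20 ng/mL for 6 h. TIF1a is the protein of the Trim24 gene, a chromatin reader and ubiquitin ligase. In the KO mice a floxed Trim24 was deleted by Cre recombinase under the lysozyme M promoter, which is active mainly in myeloid cells, and the number of mice behind each library was not given in the sources used here. There was 1 library per group, so no comparison below has a replicate check, and the tests on reads compare libraries, not conditions. In bulk RNA, fewer cells of a type and less RNA per cell cannot be told apart.

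Cell division is run by waves of transcription. Cyclins D and E with their kinases inactivate RB proteins and release E2F factors, which switch on the replication genes, whereas genes needed in mitosis are switched on later by the MuvB complex with B-MYB and FOXM1 through a promoter element called CHR. Resting cells shut off both sets through the DREAM complex. IL-4 is known to make tissue macrophages divide in vivo.

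Promoters of 6 members are shown, because these genes were called in a comparison described below (Top2a, Rrm2, Ccnb1 and Mcm2) or hold the motifs typical of their group (Cdk1 for mitosis, Mcm6 for replication). Each sequence is the 250 bases before the transcription start in RefSeq (build GRCm38.p6), read 5′ to 3′ on the strand of the gene. Capitals mark matches on either strand to the CHR element (TTTGAA), the CCAAT box bound by NF-Y (CCAAT), an E2F site (TTTCCCGC, TTTCGCGC, TTTGGCGC or TTTGCCGC) or a STAT6-type site (TTC and GAA with 4 bases between them). The windows lie at chr11:99024190-99024439 (Top2a, minus strand), chr10:69352913-69353162 (Cdk1, minus strand), chr13:100786487-100786736 (Ccnb1, minus strand), chr1:128359706-128359955 (Mcm6, minus strand), chr6:88898781-88899030 (Mcm2, minus strand) and chr12:24708004-24708253 (Rrm2, plus strand).
Top2a: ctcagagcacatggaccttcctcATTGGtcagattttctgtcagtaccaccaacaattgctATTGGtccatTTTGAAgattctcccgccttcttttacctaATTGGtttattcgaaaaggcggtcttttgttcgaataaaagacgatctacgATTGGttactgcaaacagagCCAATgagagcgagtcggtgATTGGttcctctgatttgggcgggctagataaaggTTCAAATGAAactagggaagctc
Cdk1: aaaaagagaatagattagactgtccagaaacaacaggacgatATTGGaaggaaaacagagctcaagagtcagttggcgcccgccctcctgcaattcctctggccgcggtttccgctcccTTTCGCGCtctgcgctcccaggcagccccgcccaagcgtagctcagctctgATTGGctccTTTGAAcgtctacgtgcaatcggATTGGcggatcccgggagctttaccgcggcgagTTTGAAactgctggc
Ccnb1: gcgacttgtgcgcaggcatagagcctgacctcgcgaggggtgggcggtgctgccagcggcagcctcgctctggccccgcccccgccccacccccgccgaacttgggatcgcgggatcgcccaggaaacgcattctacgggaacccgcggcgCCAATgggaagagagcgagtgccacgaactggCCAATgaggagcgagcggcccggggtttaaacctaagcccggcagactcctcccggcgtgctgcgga
Mcm6: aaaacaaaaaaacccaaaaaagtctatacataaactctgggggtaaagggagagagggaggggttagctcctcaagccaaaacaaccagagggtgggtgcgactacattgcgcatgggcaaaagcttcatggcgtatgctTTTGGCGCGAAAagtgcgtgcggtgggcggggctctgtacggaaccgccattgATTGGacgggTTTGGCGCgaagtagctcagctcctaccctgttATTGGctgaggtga
Mcm2: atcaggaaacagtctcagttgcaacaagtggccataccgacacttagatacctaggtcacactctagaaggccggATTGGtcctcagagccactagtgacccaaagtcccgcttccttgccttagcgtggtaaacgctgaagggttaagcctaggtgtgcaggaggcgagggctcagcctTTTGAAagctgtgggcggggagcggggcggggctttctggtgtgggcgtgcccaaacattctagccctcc
Rrm2: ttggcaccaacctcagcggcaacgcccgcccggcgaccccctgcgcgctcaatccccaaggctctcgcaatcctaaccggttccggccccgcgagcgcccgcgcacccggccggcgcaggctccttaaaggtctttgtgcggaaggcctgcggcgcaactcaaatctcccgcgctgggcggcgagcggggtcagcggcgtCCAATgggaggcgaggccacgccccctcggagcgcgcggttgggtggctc

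The Cdk1 promoter held 2 CHR elements and 3 CCAAT boxes in these 250 bases, together with 1 E2F site. Top2a held 2 CHR elements and 6 CCAAT boxes. Its CHR element nearest the start, read on the opposite strand, overlapped the only STAT6-type match of the mitotic group. Ccnb1 had 2 CCAAT boxes and no TTTGAA, Rrm2 had 1 CCAAT box alone, and Mcm6 had 3 E2F matches, of which the first 2 overlapped, and 2 CCAAT boxes. Mcm2 had 1 CHR element and 1 CCAAT box and was the only replication member with both in its window.

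Over windows from 250 bases before to 50 bases after each start, 39 of the 48 members had at least 1 RefSeq promoter, 47 windows in all. A CHR element was in 15 of 20 mitotic windows (75%), in 2 of 21 replication windows (9.52%), in 0 of 6 G1 windows, and in 17.9% of all 32851 promoter windows. E2F sites had the opposite pattern: 1 of 20 mitotic windows (5%) and 8 of 21 replication windows (38.1%) held one, against 2.26% of all windows. The CCAAT box was found in 18 of 20 mitotic windows (90.0%), 11 of 21 replication windows (52.4%), 1 of 6 G1 windows and 37.4% of all windows. A STAT6-type match was in 1 of 20 mitotic and 1 of 21 replication windows, beside 6.95% of all windows. These matches are letters in a window and show no binding.

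**Figure D1:**
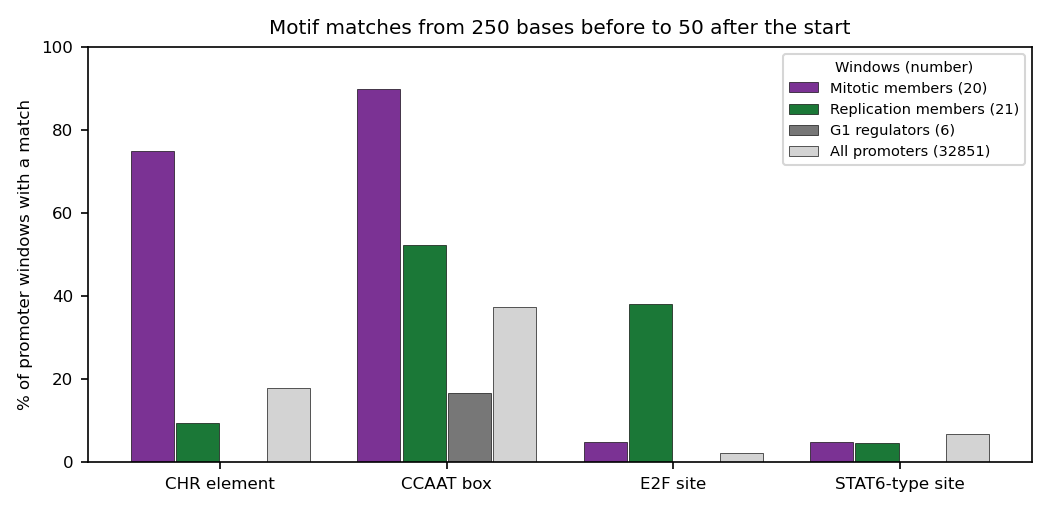
Share of promoter windows (y axis, percent) with at least 1 match to each motif (x axis), for the mitotic, replication and G1 members and for all RefSeq promoters. The CHR element stands out in the mitotic windows (75%) and the E2F site in the replication windows (38.1%).

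Mitotic genes were present at low levels in every library, and replication genes at higher ones. Levels are given as FPKM, fragments scaled to transcript length and to the mapped reads of the library, which can be compared between genes. The mean over the 4 libraries had a median of 1.16 FPKM across the 23 mitotic members (range 0.14 to 3.92) and of 5.98 FPKM across the 18 replication members (range 0.15 to 143), beside 3.71 FPKM across all listed genes. Only 1 of the 23 mitotic members, but 11 of the 18 replication members, lay above that last value. Libraries held 11026033 to 11250099 expected reads, so a mitotic gene rested on 7 to 183 reads in a library, and 15 of the 23 had under 50 reads in each of the 4.

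Among the mitotic genes, Cenpa, the histone variant of centromeres, had the highest level: 4.27 FPKM in WT untreated, 3.73 in WT IL-4, 4.09 in KO untreated and 3.60 in KO IL-4. Tpx2, which nucleates spindle microtubules, followed with 3.21, 3.54, 3.11 and 3.54 FPKM in the same order. Ube2c, the ubiquitin-conjugating enzyme of the anaphase-promoting complex, gave 3.60, 3.49, 2.64 and 2.46 FPKM. Neither Cenpa nor Tpx2 was called in any pair, and Ube2c, with lower values in both KO libraries, did not pass the test either (adjusted p = 0.76 untreated and 0.466 with IL-4, Fisher's exact test). At the low end, Bub1 (spindle checkpoint kinase) and Cenpf (kinetochore) stayed at or below 0.39 FPKM.

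Replication was led by Pcna, the sliding clamp that holds DNA polymerases on their template. It ranked 480th among all listed genes, with 135 FPKM in WT untreated, 168 in WT IL-4, 135 in KO untreated and 134 in KO IL-4, and supplied 37.4% to 41.9% of all reads of the replication members. Next came Mcm3 (11.74, 12.83, 12.50 and 13.70 FPKM) and Mcm6 (12.77, 12.13, 10.89 and 11.74 FPKM), subunits of the helicase that unwinds DNA. Fen1, which trims Okazaki fragments, had 11.41, 10.83, 11.10 and 11.67 FPKM. None of these helicase and flap nuclease genes differed past the threshold in any pair. Cdc6, which loads the helicase at origins, was at the other end with 0.08 to 0.24 FPKM.

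**Figure D2:**
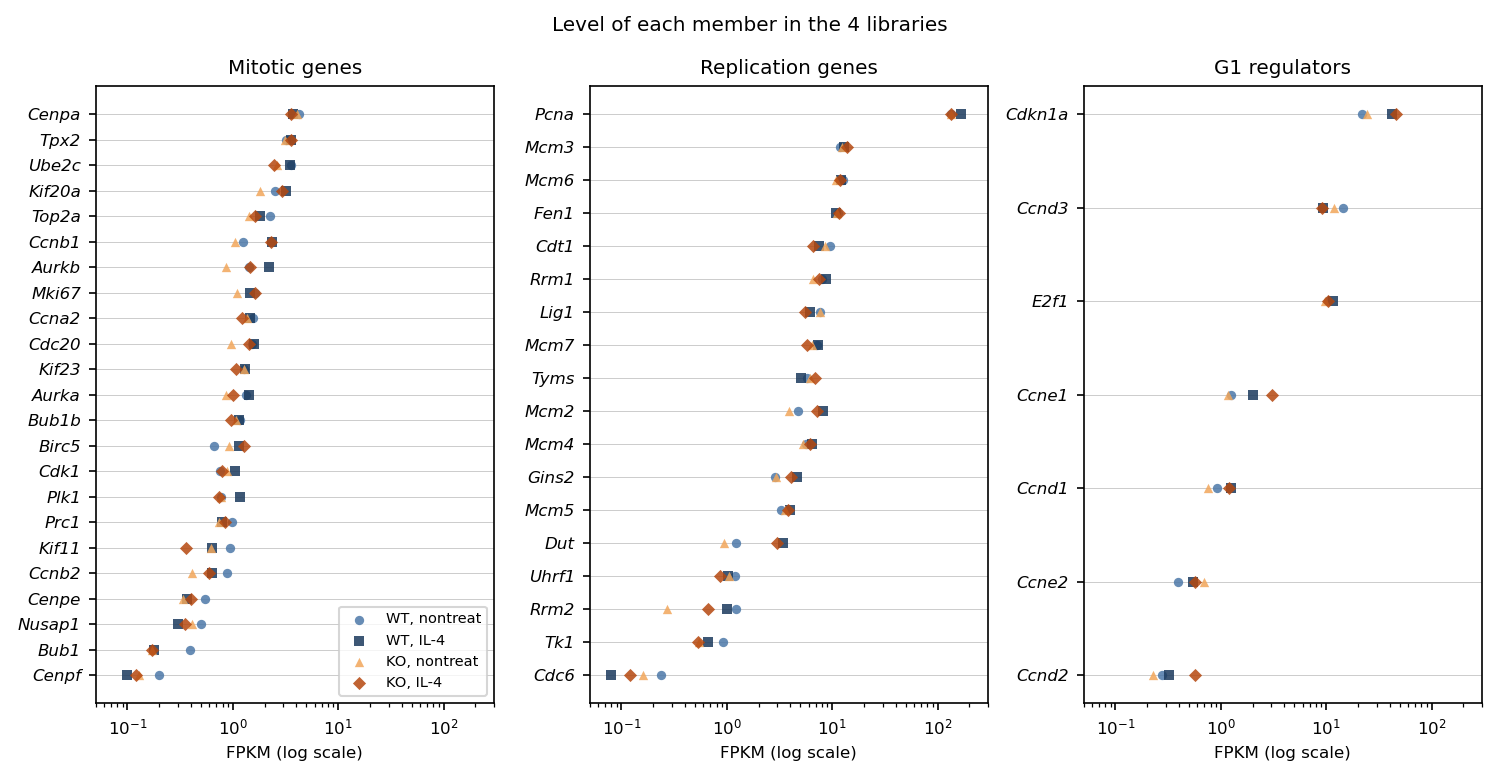
FPKM (x axis, log scale) of each member (y axis) in the 4 libraries, 1 point per library, with mitotic, replication and G1 genes in separate panels. Mitotic genes lie at or below 4.27 FPKM and Pcna lies at 134 to 168 FPKM.

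Members called with IL-4 came from all 3 groups, and most of them were higher. A gene was called when Fisher's exact test on its reads gave an adjusted p under 0.05 over all genes and its FPKM ratio, with 0.1 added to both values, exceeded 1.5-fold. In WT macrophages 4 members were called higher and 1 lower of 48, beside 12.8% of all 15593 genes tested (4.91% higher, 7.89% lower). In KO macrophages 7 members were called higher and 0 lower, beside 9.33% of 15738 genes (5.29% higher, 4.04% lower). The share of members called was below that of all genes in WT and above it in KO, where the calls were higher ones. Ccnb1, Mcm2, Dut and Cdkn1a were called higher in both genotypes, where 3.26% of all genes were called higher in both.

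Ccnb1 encodes cyclin B1, the partner of CDK1 at entry into mitosis (chr13:100778739-100786486). It had 32 and 62 reads in WT untreated and WT IL-4, and 27 and 59 reads in KO untreated and KO IL-4. Both IL-4 libraries were thus above both untreated ones. The log2 ratio was 0.87 ± 0.31 (SE from read counting alone, as for all ratios below) in WT and 1.05 ± 0.33 in KO, with adjusted p = 0.0103 and 0.00309 (Fisher's exact test). Its catalytic partner Cdk1 had 24, 34, 28 and 25 reads in the order WT untreated, WT IL-4, KO untreated and KO IL-4, with no order by treatment, and Ccnb2, the other B-type cyclin, had 15, 11, 7 and 10.

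Kif20a, a kinesin of the cleavage furrow, was called higher with IL-4 in KO only. It had 99, 127, 70 and 112 reads in the same order (2.49, 3.21, 1.81 and 2.90 FPKM). The log2 ratio was 0.65 ± 0.22 in KO (adjusted p = 0.00952, Fisher's exact test) and 0.35 ± 0.19 in WT (adjusted p = 0.218), and the difference between these responses did not pass its own test (0.35, adjusted p = 0.564). The remaining 21 mitotic members were not called in either genotype. Over all 23 the median log2 ratio was -0.04 in WT (10 above and 13 below 0) and 0.18 in KO (12 above and 10 below), beside -0.01 and 0.01 over all genes that averaged 0.5 FPKM or more. The 19 mitotic members at that level had medians of 0.03 in WT and 0.18 in KO.

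Among replication genes, Mcm2 and Dut rose with IL-4 in both genotypes. Mcm2, a helicase subunit (chr6:88883474-88898780), had 177 and 310 reads in WT untreated and WT IL-4, and 146 and 270 in KO untreated and KO IL-4. Its log2 ratio was 0.77 ± 0.14 in WT and 0.87 ± 0.15 in KO, with adjusted p = 4.72e-08 and 1.16e-08 (Fisher's exact test). The other 5 helicase subunits, Mcm3, Mcm4, Mcm5, Mcm6 and Mcm7, had log2 ratios from -0.07 to 0.29 in WT and from -0.14 to 0.21 in KO, and none was called. Of the 5 subunits with a promoter window (Mcm4 had none), Mcm2 alone held a CHR element and no E2F site. Fen1, the other replication member with a CHR element, was not called in any pair. Whether these motifs bear on the IL-4 response was not tested.

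Dut encodes dUTPase, which keeps uracil out of DNA (chr2:125247248-125259049). It had 31 and 89 reads in WT untreated and WT IL-4, and 24 and 75.3 in KO untreated and KO IL-4. These were the largest log2 ratios of any member with IL-4, 1.40 ± 0.30 in WT and 1.56 ± 0.34 in KO (adjusted p = 1.37e-06 and 1.78e-06, Fisher's exact test). The fractional value shows that some Dut reads were shared out with similar sequences, as was the case for 11 of the 48 members. Of the other nucleotide enzymes, Tyms (thymidylate synthase) had 5.75, 5.10, 6.22 and 6.88 FPKM in the order WT untreated, WT IL-4, KO untreated and KO IL-4, and Tk1 (thymidine kinase) 0.92, 0.66, 0.54 and 0.53, with no call for either.

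A few replication genes were lower with IL-4 by less than 1.5-fold. Cdt1, which licenses origins together with Cdc6, had 9.59 and 7.47 FPKM in WT untreated and WT IL-4, and 8.63 and 6.50 in KO untreated and KO IL-4. Lig1, the ligase that seals Okazaki fragments, had 7.72 and 6.09, then 7.67 and 5.53. For both genes each IL-4 library lay below both untreated ones, with Fisher's exact adjusted p between 0.00357 and 0.0337. Pcna was 0.32 higher with IL-4 on the log2 scale in WT (adjusted p = 1.43e-11) and 0.01 lower in KO (adjusted p = 0.974). Over the 18 replication genes the median log2 ratio was -0.02 in WT (9 above and 9 below 0) and 0.10 in KO (11 above and 7 below).

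The G1 regulators were the group with the highest share of calls, 2 of 7 in WT and 3 of 7 in KO, beside 12.8% and 9.33% of all genes. In WT 1 was called higher and 1 lower, and in KO 3 were called higher and 0 lower. Cdkn1a, the CDK inhibitor p21 (chr17:29090979-29100722), was the most abundant G1 regulator: 22.0 FPKM in WT untreated, 41.8 in WT IL-4, 24.3 in KO untreated and 45.5 in KO IL-4. Both IL-4 libraries lay far above both untreated ones. The log2 ratio was 0.92 ± 0.08 in WT and 0.90 ± 0.08 in KO (adjusted p = 2.89e-29 and 2.56e-30, Fisher's exact test).

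Ccne1, cyclin E1, which drives entry into S phase, had 28 and 46 reads in WT untreated and WT IL-4, and 26 and 68 in KO untreated and KO IL-4. It was called in KO (log2 ratio 1.31 ± 0.33, adjusted p = 9.24e-05, Fisher's exact test) and not in WT (0.65 ± 0.34, adjusted p = 0.124). Ccnd2, cyclin D2, had 18, 21, 15 and 37 reads in the order WT untreated, WT IL-4, KO untreated and KO IL-4, and was called in KO (1.02 ± 0.44, adjusted p = 0.0112). Only the KO IL-4 library stood out for Ccnd2. Neither gene passed the test of a difference between the genotypes' responses (Ccne1 0.69, adjusted p = 0.444, and Ccnd2 1.09, adjusted p = 0.331).

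Ccnd3, cyclin D3 and the most abundant D-type cyclin here, went the other way, with 14.4, 9.28, 11.9 and 9.21 FPKM in the same order. Its log2 ratio was -0.63 ± 0.13 in WT, which was called (adjusted p = 4.97e-06, Fisher's exact test), and -0.37 ± 0.14 in KO, under the 1.5-fold limit (adjusted p = 0.0303). The G1 genes with no call were E2f1, the transcription factor (10.46, 11.53, 9.72 and 10.36 FPKM), Ccnd1 (0.92, 1.25, 0.76 and 1.19 FPKM) and Ccne2 (0.39, 0.55, 0.69 and 0.57 FPKM). Of these, Ccnd1 was higher in both IL-4 libraries than in both untreated ones, with adjusted p = 0.303 in WT and 0.15 in KO by the same exact test. Over the 7 genes the median log2 ratio was 0.40 in WT and 0.58 in KO.

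**Figure D3:**
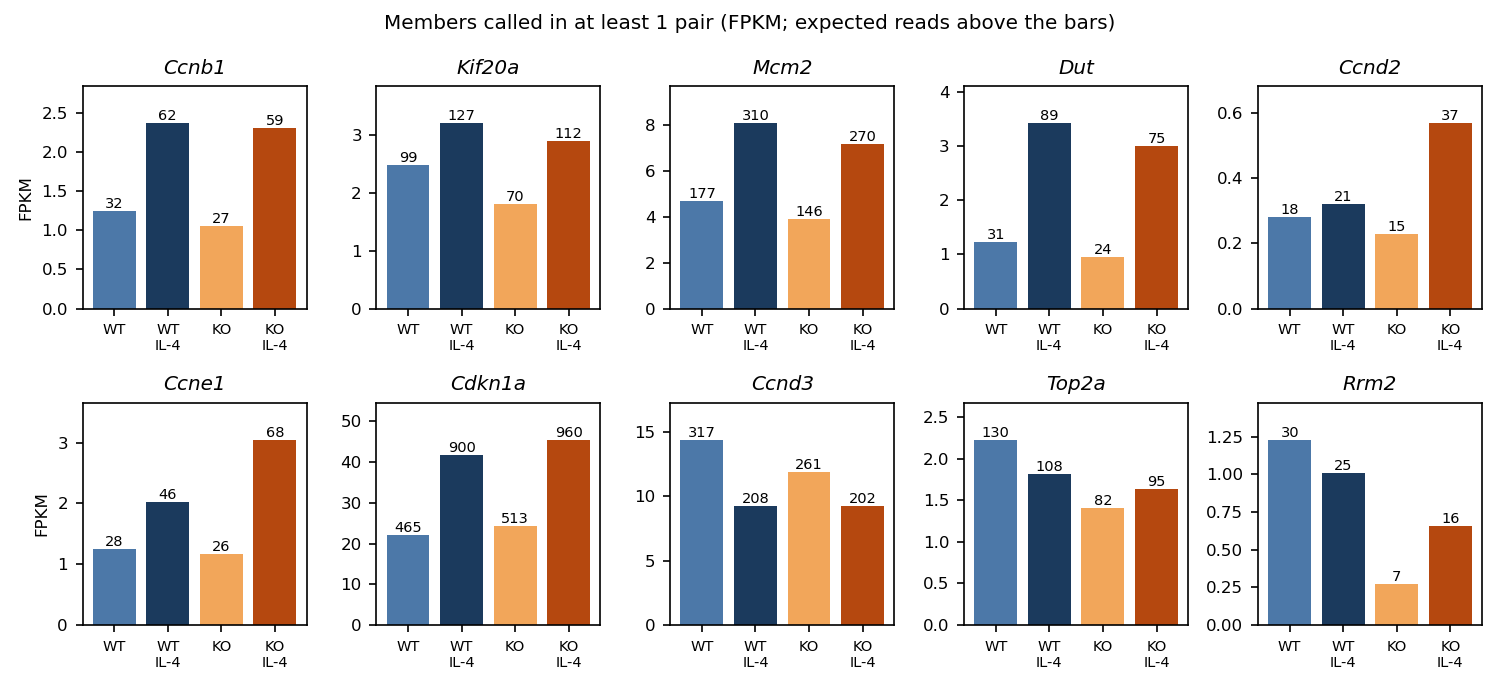
FPKM (bars, y axis from 0) of the 10 members called in at least 1 pair of libraries, 1 bar per library, with the expected reads printed above each bar. Ccnb1, Mcm2, Dut and Cdkn1a are higher in both IL-4 libraries than in both untreated ones, and Top2a and Rrm2 are lowest in the untreated KO library.

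An additive fit of treatment and genotype over all 4 libraries used the other genotype as the repeat, which leaves 1 residual degree of freedom. In edgeR's quasi-likelihood test 6 members were higher and 3 lower with IL-4 of 45 that passed the filter on low counts, beside 25.3% of 11791 genes (12.0% higher, 13.3% lower). Those higher were Cdkn1a, Mcm2, Dut, Ccnb1, Ccne1 and Kif20a, and those lower were Ccnd3, Lig1 and Cdt1. The log2 fold changes of Mcm2 (0.84, adjusted p = 0.00016), Dut (1.57, adjusted p = 0.000226) and Cdkn1a (0.92, adjusted p = 7.06e-06) had the smallest adjusted p. With DESeq2 only these 3 passed. No member was called in any pair of libraries once biological variation with a coefficient of 0.2 was assumed in place of counting error alone.

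Between KO and WT macrophages 2 members were called, both lower in untreated KO, and the mitotic genes leaned to lower values there. The targeted gene was checked first: Trim24 had 2.55 FPKM in WT untreated and 1.48 in WT IL-4, and 0.06 in KO untreated and 0.14 in KO IL-4 (4 and 10 reads). In untreated cells 0 members were called higher and 2 lower in KO, beside 1.58% of 15623 genes (0.839% higher, 0.742% lower). With IL-4 no member was called by Fisher's exact test in either direction, beside 3.81% of 15573 genes (3.04% higher, 0.764% lower). An unadjusted p under 0.05 was reached by 7 of the 48, a smaller share than the 4442 of 15573 over all genes. The additive fit in edgeR called no member for genotype either (DESeq2 called 0), beside 1.66% of 11791 genes (1.29% higher, 0.373% lower). An unadjusted p under 0.05 was given to 6 of 45 members and to 1680 of all 11791 genes, which are similar shares.

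Rrm2, the regulated subunit of ribonucleotide reductase, which makes the building blocks of DNA (chr12:24708254-24714146), had the largest difference. It had 30 and 25 reads in WT untreated and WT IL-4, and 6.65 and 16 in KO untreated and KO IL-4. The log2 ratio of KO to WT was -1.85 ± 0.59 untreated (adjusted p = 0.00505, Fisher's exact test) and -0.55 ± 0.46 with IL-4 (adjusted p = 0.482). Its partner Rrm1, the large subunit, was far more abundant and had 7.98, 8.77, 6.59 and 7.43 FPKM in the same order of libraries, lower in both KO libraries with adjusted p = 0.155 and 0.107.

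Top2a encodes topoisomerase II alpha, which untangles sister chromosomes (chr11:98992947-99024199). It had 130 and 108 reads in WT untreated and WT IL-4, and 82 and 95 in KO untreated and KO IL-4. Both KO libraries were below both WT libraries, and untreated KO was lowest. The log2 ratio was -0.63 ± 0.20 untreated (adjusted p = 0.0229, Fisher's exact test) and -0.15 ± 0.20 with IL-4 (adjusted p = 0.749). Mki67, the proliferation marker Ki-67 that coats mitotic chromosomes, had 183, 168, 123 and 182 reads in the same order, and its untreated ratio of -0.53 ± 0.17 stayed under 1.5-fold (adjusted p = 0.0152).

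The lean of the mitotic group was seen in many genes at small size. In untreated cells 19 of the 23 mitotic members were lower in KO than in WT and 2 were higher, with a median log2 ratio of -0.38, beside -0.01 over all genes that averaged 0.5 FPKM or more, of which 51.9% were lower. With 1 FPKM added in place of 0.1 the mitotic median was -0.19. With IL-4, 16 were lower and 6 higher, with a median of -0.14 beside 0.02. The 19 mitotic members that averaged 0.5 FPKM or more had medians of -0.38 untreated and -0.15 with IL-4. Untreated KO held the lowest level of 11 of the 23 genes and the highest level of none of them, while 26.7% of all genes that averaged 0.5 FPKM or more were lowest in that library. Ccnb2 (-0.96), Bub1 (-0.86), Aurkb (-0.65), Cdc20 (-0.61) and Aurka (-0.57) had the lowest log2 ratios that were not called, on 7 to 31 reads in these 2 libraries. Birc5 and Cdk1 were the 2 that were higher, and Kif23 and Plk1 were equal.

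Replication genes leaned the same way, by less than the mitotic genes in untreated cells but not with IL-4. Of 18, 13 were lower and 5 higher in untreated KO (median log2 ratio -0.15), and 14 were lower and 4 higher with IL-4 (median -0.18). Pcna was equal in the untreated libraries (log2 ratio 0.00) and lower in KO with IL-4 (-0.33 ± 0.04, adjusted p = 8.72e-12, Fisher's exact test), while Tyms was higher there (0.43, adjusted p = 0.00661), both under 1.5-fold. For the 7 G1 regulators the median log2 ratio was -0.10 untreated and 0.04 with IL-4.

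**Figure D4:**
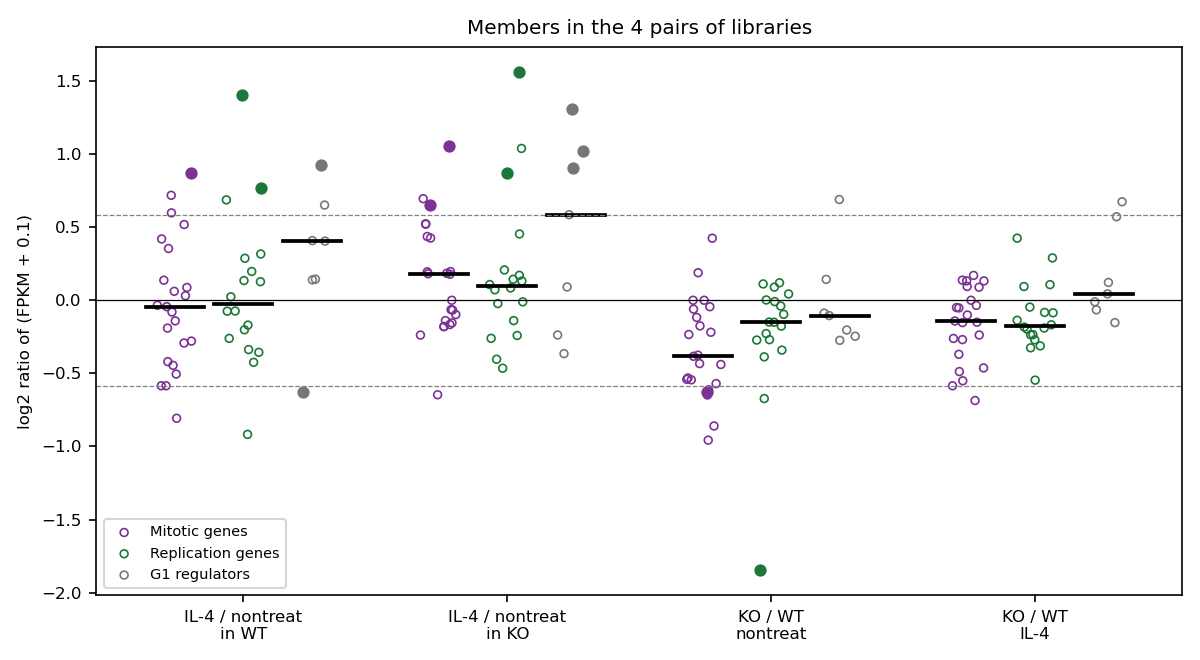
log2 ratio of FPKM + 0.1 (y axis) of each member in the 4 pairs of libraries (x axis). Filled points are members called, black bars are medians over all members of a group, and dashed lines mark 1.5-fold. The mitotic median is -0.38 in the untreated KO to WT pair.

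Summed reads, which reuse the same counts, were also lowest in untreated KO for the mitotic and the replication genes. Genes with many reads weigh most in such sums. Of 1195 mitotic reads in WT untreated and 929 in KO untreated, Mki67 gave 183 and 123 and Top2a 130 and 82. Counts scaled to a common library total (CPM) were added up over each group. The 23 mitotic genes together gave 108 CPM in WT untreated (95% exact Poisson interval 102 to 115, counting error only), 107 in WT IL-4 (101 to 114), 84.2 in KO untreated (78.9 to 89.8) and 98.1 in KO IL-4 (92.3 to 104). The untreated KO interval lay below those of the other 3 libraries. The 18 replication genes gave 446 CPM (433 to 458), 500 (487 to 513), 426 (414 to 438) and 446 (434 to 459) in the same order, with WT IL-4 apart from the rest. Without Pcna the replication sums were 278, 290, 258 and 279. There were 24.3, 21.5, 19.8 and 22.0 mitotic reads for every 100 replication reads.

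Markers of other cells were summed in the same way. The 12 markers of mesothelial cells and fibroblasts, the cells of the peritoneal lining and its stroma, summed to 217, 189, 108 and 224 CPM in the order WT untreated, WT IL-4, KO untreated and KO IL-4. Like the mitotic sum they were lowest in untreated KO. By CPM they were highest in KO IL-4, where the mitotic sum was below both WT libraries. Their summed FPKM was not highest there (50.93, 50.62, 25.62 and 50.14 in the same order). With IL-4, 3 of the 12 were called lower and 2 higher in KO than in WT, beside 0.764% and 3.04% of all genes. In that pair 8 were lower and 4 higher, with a median log2 ratio of -0.24. In untreated KO 5 of the 12 were called lower than in WT, beside 0.742% of all genes: Col1a1, Col1a2, Col3a1, Dcn and Pdgfra. All 12 had reads in 3 of the libraries, and Lum was at 0 in WT IL-4. In KO the summed CPM of these markers went from 108 to 224 with IL-4, and the mitotic sum from 84.2 to 98.1. Krt18 and Krt8, 2 of the 12 markers, were called higher with IL-4 in both genotypes. The 7 markers of resident peritoneal macrophages gave 42.8, 47.7, 29.5 and 33.4 CPM, and were lower in both KO libraries. Their defining factor Gata6 had 54, 77, 40 and 42 reads.

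The macrophage markers themselves were high throughout, with reads for 12 of 12 in each library, and Lyz2, the lysozyme gene from whose promoter Cre was driven, was lower in both KO libraries (59501 and 54519 reads, against 129463 and 126458 in WT). B cell markers summed to 6.80 to 10.9 CPM, T and NK cell markers to 6.59 to 7.73, mast cell markers to 4.62 to 11.3 and erythroid markers to 2.36 to 6.71. Mast cell markers were highest in untreated KO. The 10 neutrophil markers summed to 177, 307, 172 and 311 CPM in the order WT untreated, WT IL-4, KO untreated and KO IL-4, higher with IL-4 in both genotypes. Most of these were reads of Csf3r, the G-CSF receptor (1758, 3291, 1711 and 3236 reads), which was called higher with IL-4 in both, while S100a9, Ly6g, Retnlg, Camp and Ngp were at 0. What part these cells had in the mitotic values was not tested.

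**Figure D5:**
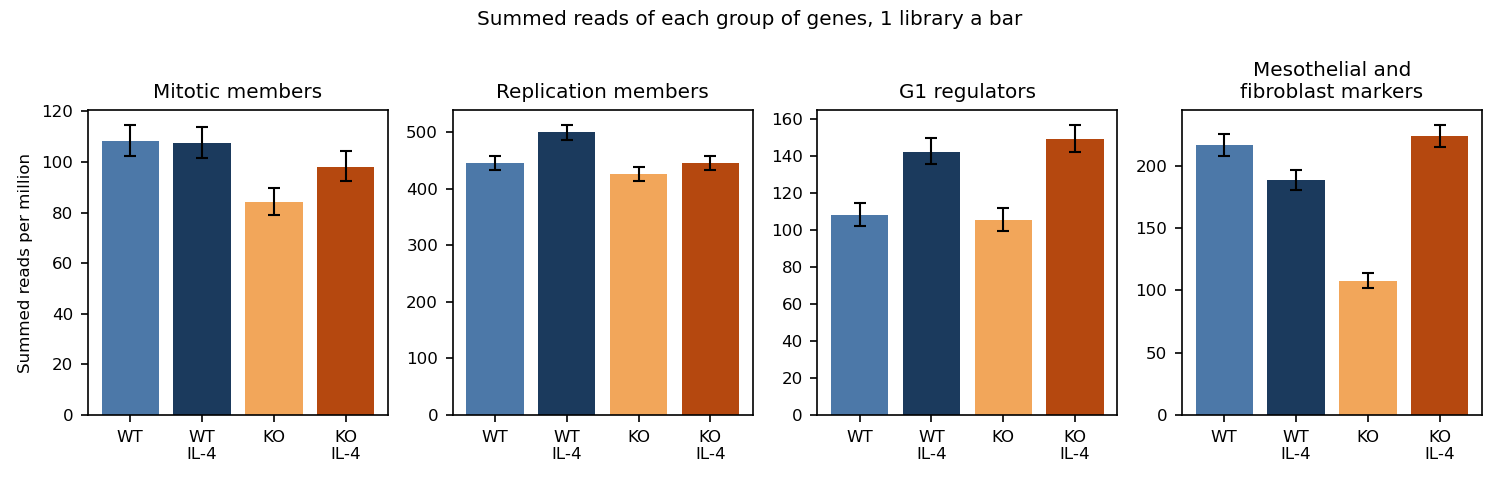
Summed CPM (bars, y axis from 0) of the mitotic, replication and G1 members and of mesothelial and fibroblast markers, 1 bar per library, with 95% exact Poisson intervals. Mitotic reads (84.2) and mesothelial and fibroblast reads (108) are both lowest in untreated KO.

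The response to IL-4 was compared between genotypes gene by gene, as the log2 ratio in KO minus that in WT. Mki67 was the only member called, beside 2.44% of 13381 genes (2.09% higher, 0.359% lower). From 1.62 FPKM in WT untreated it went to 1.46 with IL-4, and from 1.09 in KO untreated to 1.61, a difference of 0.71 (95% interval 0.27 to 1.16, adjusted p = 0.0207, Wald test on read counts). The low untreated KO library set it apart, since the other 3 had 168 to 183 reads. Transcript length moved with this value, and Ki-67 mRNA is long at 10098 bases. Spearman's rho of log2 ratio and length was -0.37 for IL-4 in WT (10442 genes) and -0.11 in KO (10441 genes). With the trend removed the difference was 0.33 (adjusted p = 0.549, Wald test on read counts). The IL-4 ratio of Mki67 in WT then changed sign, from -0.14 to 0.40, and was not called. In KO its IL-4 ratio went from 0.52 to 0.68 and was called. Its untreated KO to WT ratio went from -0.53 to -0.61 and was called lower.

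Pcna differed in the opposite direction, by -0.33 (95% interval -0.46 to -0.20, adjusted p = 1.86e-05), under the 1.5-fold limit, and by -0.23 with the trend removed (adjusted p = 0.019). Its 2355 reads in WT IL-4 stood above 1840 to 1855 in the other 3 libraries. The length trend also bears on KO against WT with IL-4, where rho was 0.52 across 10442 genes, 0.31 across the mitotic and 0.47 across the replication members. With it removed the mitotic median there was -0.27 instead of -0.14. In the pair of untreated libraries rho was 0.13, and the mitotic median was -0.40 with the trend removed.

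Further genes of the same machinery were taken from wider lists. With IL-4, 2 of 70 other mitotic genes rose and 5 fell in WT, and 1 rose and 2 fell in KO. Ncapg2, a condensin subunit, fell in both (3.71, 1.61, 3.01 and 1.57 FPKM in the order WT untreated, WT IL-4, KO untreated and KO IL-4), as did Espl1, the separase that splits sister chromatids (0.59, 0.29, 0.77 and 0.38 FPKM). Of 57 other replication genes, 1 rose and 3 fell in WT, and 2 rose and 2 fell in KO, and Pold1, the catalytic subunit of polymerase delta, fell in both (4.12, 2.70, 3.55 and 2.21 FPKM). For both lists the share called in each direction was below that of all genes (4.91% higher and 7.89% lower in WT, 5.29% and 4.04% in KO). With the length trend removed, Espl1 and Pold1 were called in KO but not in WT.

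Among regulators upstream of the cycle some were called as well, in short lists beside which 12.8% of all genes were called in WT and 9.33% in KO. Of 15 further G1 kinases and growth genes 2 rose and 1 fell with IL-4 in WT, and 2 rose and 1 fell in KO. Myc, the growth-promoting transcription factor, rose with IL-4 in both genotypes (3.84, 11.57, 2.26 and 9.10 FPKM in the same order), and so did Wee1, the kinase that holds back CDK1 (3.76, 6.06, 4.27 and 7.32 FPKM). Of 7 other CDK inhibitors 1 fell in WT and 2 in KO, with Cdkn1c (p57) falling in both (49.87, 25.46, 71.80 and 32.98 FPKM), opposite to Cdkn1a. Among 18 RB, E2F and DREAM genes 0 rose and 1 fell in WT, and 2 rose and 1 fell in KO. E2f2, an E2F activator, fell in both (1.56, 0.65, 1.12 and 0.60 FPKM).

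Of 25 targets of p53, the factor best known for inducing Cdkn1a, 2 rose and 3 fell in WT and 3 rose and 2 fell in KO, beside the same 12.8% and 9.33% of all genes in either direction. Those called in both genotypes were Plk3 (2.07, 5.42, 1.13 and 4.08 FPKM) and Fas (6.20, 10.05, 5.66 and 8.61 FPKM), which rose, and Gadd45a (28.48, 17.93, 27.53 and 12.98 FPKM) and Gadd45g (36.98, 19.21, 43.23 and 18.26 FPKM), which fell. With the length trend removed, Fas was called in neither genotype. None of 18 genes of the APC and SCF ubiquitin ligases was called in either genotype by Fisher's exact test, with 6 in WT and 3 in KO at an unadjusted p under 0.05, smaller shares than the 6083 of 15593 and 5057 of 15738 over all genes.

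Genotypes were compared in these wider lists too. In untreated cells 1 of the 70 mitotic genes was higher in KO and 1 lower, and 1 of the 57 replication genes was lower, beside 0.839% of all genes higher and 0.742% lower. That last gene was Pclaf, whose protein binds PCNA, and like Rrm2 it was lowest in untreated KO, with 1.49, 0.99, 0.25 and 0.55 FPKM (log2 ratio -2.18 untreated). The mitotic genes were Cks2, a CDK subunit, with 3.65, 4.64, 7.99 and 7.18 FPKM, and Racgap1, which organises the central spindle, with 3.24, 1.75, 1.63 and 1.67 FPKM. These 3 were named after their values were seen. The median log2 ratio in untreated KO was -0.21 over the 70 mitotic genes (50 lower and 19 higher) and -0.05 over the 57 replication genes (32 lower and 21 higher). Over genes that averaged 0.5 FPKM or more it was -0.17 (43 mitotic) and -0.10 (42 replication), beside -0.01 over all such genes. In KO against WT with IL-4 the medians over the full lists were -0.11 and -0.09.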

How the data were processed

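Peritoneal macrophage RNA was sequenced by a service company, with 1 library per group. Per the labels and the study's methods, the authors used Bowtie to map reads (GRCm38/mm10) and RSEM to quantify genes (versions and strand not given in the sources used here). The deposited files give RSEM expected counts, which divide reads shared by similar transcripts, and FPKM values, which the authors normalized for transcript length and depth and rounded to 2 decimals. Unlisted genes were taken as 0. Of 16403 gene IDs, 16365 had a symbol in RefSeq GRCm38.p6.

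Reads of 2 libraries were tested gene by gene with Fisher's exact test (two-sided, rounded expected counts), and p-values were adjusted after Benjamini-Hochberg over every gene detected in either. A call needed adjusted p below 0.05 and a ratio of FPKM + 0.1 above 1.5-fold, limits from the study's general methods (its IL-4 gene list used other ones). Differences of responses were tested by a Wald test on log counts with 0.5 added, in genes with at least 10 reads over the 4 libraries. Additive fits used edgeR 4.0.16 (quasi-likelihood, TMM, filterByExpr), with DESeq2 1.42.0 and limma 3.58.1 as alternatives. All p-values of pairs measure counting error only. A length trend was estimated by lowess (fraction 0.3) on genes of at least 200 bases and 1 FPKM. With the trend removed, pairs were tested by an exact binomial test on their reads. The scripts were tested on simulated data.

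The members and all lists were chosen with earlier results of these data known, and nothing was adjusted over a list alone. Named with values in all 4 libraries are the members called in a pair, the 5 most abundant mitotic and replication members and all G1 regulators. From each other list, at most 4 genes were named by rule, those called in one direction in both pairs of a contrast. Further members (such as Cdk1, Ccnb2, Mki67, Rrm1, Lig1, Tyms and Tk1), other genes and cell markers were named outside these rules, with their values known. Promoters came from RefSeq (GRCm38.p6), with 9 members not analysed for motifs. Analyses ran in Python 3.11.15 (SciPy 1.17.1) and R 4.3.3.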

Additional observations from a re-analysis of the deposited data

Results flagged for a closer look

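IL-4 responses of 2 members differed between genotypes by the test of the difference itself. For Mki67 the log2 response in KO minus that in WT was 0.71 (adjusted p = 0.0207, Wald test on read counts), and 0.33 (adjusted p = 0.549) with the length trend removed. For Pcna it was -0.33 (adjusted p = 1.86e-05), and -0.23 (adjusted p = 0.019) with the trend removed. Each value rests on 4 libraries without repeats, so biological spread was not measured.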

How the results depend on the processing

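With 1 library per group, the pairs measure counting error alone, and 15 of 23 mitotic members had under 50 reads in every library, so small differences were not detectable at this depth. No paired analysis was possible because no group had a second library to pair.

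Counts of members called changed by over 1.5 times in these cases. For IL-4 in WT, 5 members became 3 with a pseudocount of 1 FPKM, 1 with a 2-fold limit and 0 when biological variation (coefficient 0.2 or 0.4) was assumed. For IL-4 in KO, 7 became 4 with a 2-fold limit and 0 with either assumed variation. For KO against WT untreated, 2 became 1 with a pseudocount of 1 FPKM, with a minimum mean of 1 FPKM or with a 2-fold limit, and 0 with either assumed variation. The single difference of responses became 0 with a 2-fold limit or the length trend removed. In the additive fit, 9 members for IL-4 became 3 with DESeq2 and 4 with all genes with a read, and 0 for genotype became 1 with upper-quartile scaling (Rrm2) and 4 with the length trend as an offset (Mki67, Top2a, Rrm1 and Rrm2). The CCAAT share of mitotic windows was 90.0% on both strands and 65% on the given strand only. The cause of the changes with scaling was not tested, while the assumed variation and the 2-fold limit raise the threshold by construction.

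Over all genes, 1996 calls for IL-4 in WT became 861 with a 2-fold limit and 258 and 45 with assumed variation of 0.2 and 0.4. The same 3 settings gave 710, 272 and 33 of 1468 for IL-4 in KO, 127, 15 and 7 of 247 for KO against WT untreated, and 171, 21 and 11 of 593 with IL-4. A pseudocount of 1 FPKM gave 155 and 321 for the last 2, and removal of the length trend 316 for the last. The difference of responses had 327 calls, 101 with the trend removed and 105 with a 2-fold limit. The additive fit had 2987 calls for IL-4 (1223 with DESeq2, 1675 with all genes with a read) and 196 for genotype (65 with DESeq2, 24 with all genes with a read, 59 with limma, 494 with upper-quartile scaling, 624 with the length offset).

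Of 32 results for single members, over 204 alternatives, 138 kept their side of the threshold, 57 lost and 9 gained a call, and 0 turned direction. Medians of the 3 groups moved by less than their 95% counting error in 48 of 48 alternatives. That error is wide (0.19 for the mitotic genes in KO against WT untreated), and a pseudocount of 1 FPKM, which shrinks ratios of low genes by construction, took this median from -0.38 to -0.19. It took the mitotic median for IL-4 in KO from 0.18 to 0.06, the G1 median for IL-4 from 0.40 to 0.16 in WT and from 0.58 to 0.32 in KO, and the replication median in untreated KO from -0.15 to -0.10. The replication median for IL-4 in WT went from -0.02 to 0.01 with TMM-scaled totals. The summed reads stayed within their intervals with TMM-scaled totals.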

Other observations

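Some further calls outside the 48 members, named after their values were seen, are given in FPKM in the order WT untreated, WT IL-4, KO untreated and KO IL-4. With IL-4, Psrc1, a spindle protein, was higher in KO than in WT (1.72, 1.95, 2.25 and 3.82), whereas Pttg1, the securin that restrains separase, was lower (23.83, 21.79, 18.19 and 14.30), as was Cdca2, a phosphatase subunit of mitotic exit (0.35, 0.52, 0.28 and 0.18). Cdkn2a, the locus of the inhibitors p16 and ARF, was lower in KO with IL-4 (0.66, 1.91, 0.20 and 0.20). Cdca2 rested on 14, 22, 11 and 7 reads and Cdkn2a on 6, 18, 2 and 2. Sesn2, a p53 target, rose with IL-4 in KO, was higher in KO than in WT with IL-4, and was called in the difference of responses (5.63, 7.43, 5.23 and 11.37). Gins3, a subunit of the replicative helicase complex, fell with IL-4 in KO and had a lower response there than in WT (1.09, 1.51, 2.02 and 1.09). With the length trend removed, Pttg1 (adjusted p = 0.159, exact binomial test) and the difference of responses of Gins3 (adjusted p = 0.0908, Wald test on read counts) were no longer called. Myc was called lower in KO than in WT in untreated cells, with a log2 ratio of -0.74.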
